A study of Mus musculus with 2 samples.

Results

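Sis, Anpep, Alpi, Fabp1, Fabp2, Rbp2, Apoa1 and Mttp are 8 genes known from absorptive enterocytes, the cells that digest and take up nutrients in the small intestine. They were followed here in cells sorted for a reporter of a different lineage, the enteroendocrine one. The 8 genes were set by name as a list of enterocyte genes, out of 16943 nuclear genes in the 2 plates and not by a cutoff on their values. The count tables list 7 of them for both plates; Alpi is listed for the ISX-9 plate alone and was set to 0 in the other. The cells came from organoids grown from mouse jejunal and ileal epithelium, of the genotype Neurog3-RFP hom, and all were sorted as Ngn3-RFP-positive. One plate held cells of organoids given DMSO, the solvent control, for 48 h. The other held cells of organoids given ISX-9, a small molecule known to promote neuronal and endocrine differentiation, for 48 h. Both groups share the reporter allele and the sort, and there is no plate of reporter-negative cells to set beside them.

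Enterocytes carry a brush border of microvilli. Sucrase-isomaltase (Sis), aminopeptidase N (Anpep) and intestinal alkaline phosphatase (Alpi) sit in its membrane and act on sugars, peptides and phosphate esters. The liver-type and intestinal-type fatty acid binding proteins (Fabp1, Fabp2) and the cellular retinol binding protein Rbp2 carry lipids inside the cell, while the microsomal transfer protein Mttp and the apolipoprotein Apoa1 serve the export of lipid in lipoproteins. Enterocytes and enteroendocrine cells arise from the same crypt stem cells; Neurog3 starts the endocrine lineage, Neurod1 acts after it, and Tph1, the first enzyme of serotonin synthesis in the gut, marks enterochromaffin cells.

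SORT-seq places each cell in a well of a 384-well plate and copies its polyadenylated RNA with a well barcode. Wells with at least 2000 reads outside spike-in (ERCC) and mitochondrial rows and at least 500 genes were kept, which left 300 wells of the DMSO plate (median 26340 reads, range 2295 to 489134) and 290 wells of the ISX-9 plate (median 22509.5 reads, range 2007 to 326339). Levels are given in CPM, a gene's reads as counts scaled to a common total of these reads, over a set of wells or within 1 well. Each treatment has 1 plate and wells are not replicates, so no test was made and no difference between plates has a replicate check. Intervals are exact 95% Poisson intervals for CPM and exact Clopper-Pearson intervals for shares of wells, and cover counting error only, since the values are reads and not molecules. A gene is called high in a well with at least 500 CPM and at least 3 reads. The same well barcodes served both plates: 225 well numbers were kept in both, and at 32 of them Sis had a read in both plates, against 34.6 from the product of the shares.

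Of the 3 brush-border enzymes among the 8, Sis was high in the most wells of either plate. In the DMSO plate it had 3448 reads, or 234 CPM (226 to 242), in 107 of 300 wells (35.7%, 30.2 to 41.4%). In the ISX-9 plate it had 5213 reads, or 442 CPM (429.8 to 454), in 119 of 290 wells (41.03%, 35.3 to 46.9%). Thinned to 2000 reads in every well, so that depth is the same, the shares were 18.3% and 24.1%. Wells with a Sis read ranged from 3.58 to 4419 CPM with a median of 286 in the DMSO plate, and from 3.73 to 7121 CPM with a median of 518 in the ISX-9 plate. The plates overlapped over nearly this whole range. Sis was high in 36 DMSO wells (12%) and 60 ISX-9 wells (20.7%), and ISX-9 over DMSO gave a log2 ratio of 0.90 after 5 CPM was added to each level. One deep DMSO well of 432936 reads held 690 Sis reads, 20.01% of the plate's Sis total, whereas the top ISX-9 well held 8.29%.

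Anpep was read in more wells of the DMSO plate than Sis was, at low levels. It had 73.2 CPM (68.9 to 77.7) in 120 DMSO wells and 59.7 CPM (55.3 to 64.2) in 102 ISX-9 wells, a log2 ratio of -0.27, and was high in 3 and 5 wells. The thinned shares of the DMSO and ISX-9 plates were 8.67% and 8.62%. Alpi had no read in the DMSO plate, where 3 reads, the limit that a count of 0 allows, would be 0.203 CPM. The ISX-9 plate held 117 Alpi reads, or 9.91 CPM (8.20 to 11.9), all in 6 wells (2.07%), which is at least 48.8-fold higher than that limit over the plate. Alpi thus differed between the plates by 6 wells of one library.

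The lipid carriers did not go together. Fabp1 had 1 DMSO read, and 4 reads in 2 wells of the ISX-9 plate, so that this gene, abundant in enterocytes of the proximal small intestine, was all but unread in both. Fabp2 had 28.8 CPM (26.1 to 31.7) in 56 DMSO wells and 33.3 CPM (30.1 to 36.8) in 58 ISX-9 wells, a log2 ratio of 0.18 (-0.04 with ERCC scaling) and intervals that overlap. Rbp2 had 6.10 CPM (4.90 to 7.50) in 19 DMSO wells and 1.95 CPM (1.24 to 2.92) in 18 ISX-9 wells. Its log2 ratio of -0.68 rests on 1 DMSO well with 44 of the 90 reads, and is -0.30 when the well with the most Rbp2 reads is left out of each plate.

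Of the lipoprotein genes, Apoa1 had 11.7 CPM (9.98 to 13.5) in 26 DMSO wells and 9.57 CPM (7.89 to 11.5) in 27 ISX-9 wells, a log2 ratio of -0.19. Mttp had 22.2 CPM (19.9 to 24.8) in 45 DMSO wells (15%) and 43.04 CPM (39.4 to 46.96) in 68 ISX-9 wells (23.4%), a log2 ratio of 0.82. Mttp was high in no well of either plate: its wells with a read ran from 8.10 to 355 CPM and from 9.77 to 332 CPM, nearly the same range.

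The 8 log2 ratios had a median of 0.13, also with Alpi at its bound, beside 0.08 for the median of all 16943 genes. For the 9106 genes whose mean reached 10 CPM the median was 0.15. Median-of-ratios scaling shifts the median of all genes by -0.17 and scaling to ERCC reads by -0.25. Of the 5 members with such a mean (Sis, Anpep, Fabp2, Apoa1 and Mttp), 0 were 2-fold higher and 0 were 2-fold lower in the ISX-9 plate, beside 4.51% and 1.19% of the 9106 genes. Their median was 0.18, so as a list they lay where all genes lay. Sis and Mttp stood above that median at 0.90 and 0.82, and Anpep and Apoa1 below it.

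**Figure D1:**
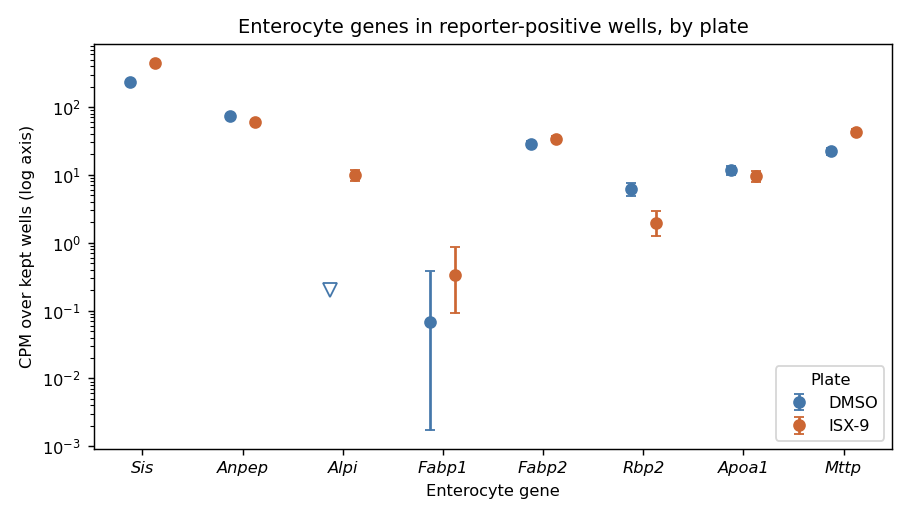
CPM of each of the 8 genes over the kept wells of the DMSO (blue) and ISX-9 (orange) plate on a log axis, with exact 95% Poisson intervals; the open triangle is the 3-read limit of Alpi in the DMSO plate. Sis lies at 234 and 442 CPM, while Fabp1 lies at 0.0678 and 0.339 CPM.

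The bases before the start sites of Sis and Fabp1 are shown because they hold the same motif letters while the genes were read in 107 and 1 wells of the DMSO plate. Both are RefSeq sequences on GRCm38.p6, the 250 bases before the start, 5′ to 3′ on the gene's strand: Sis on the minus strand at chr3:72967864-72968113 and Fabp1 on the plus strand at chr6:71199629-71199878. Capitals mark matches on either strand to the CDX motif TTTATG, to GTTAAT, which is part of the HNF1 motif, and to the TATA box TATAAA, where overlapping matches run together.
Sis: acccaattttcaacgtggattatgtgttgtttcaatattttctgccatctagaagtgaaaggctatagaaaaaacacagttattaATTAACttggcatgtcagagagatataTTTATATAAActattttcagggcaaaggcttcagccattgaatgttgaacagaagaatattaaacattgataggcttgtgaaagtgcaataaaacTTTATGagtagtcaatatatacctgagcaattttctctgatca
Fabp1: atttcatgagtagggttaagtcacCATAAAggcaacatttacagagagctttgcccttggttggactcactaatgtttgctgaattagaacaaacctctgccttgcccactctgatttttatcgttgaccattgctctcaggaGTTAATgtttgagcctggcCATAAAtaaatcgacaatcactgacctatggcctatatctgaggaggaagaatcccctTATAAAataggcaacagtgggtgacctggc
In Sis the CDX letters begin at -43 and the HNF1 letters at -165 from the start. In Fabp1 the CDX letters begin at -226 and -88 and the HNF1 letters at -107. The TATA letters stand at unlike places, beginning at -138 and -134 in Sis and at -30 in Fabp1. The CDX letters stand in 2 of the 8 members' windows and in 10.8% of 32851 promoters, the HNF1 letters in 2 of 8 and 6.43%, and the TATA letters in 4 of 8 and 12.4%. The HNF4 motif CAAAGTCCA was found in Alpi alone among the 8, at -19, and in 0.384% of all promoters. The GATA motif AGATAA was found in Rbp2 alone among them, and in 9.99% of all. The bases after the listed start matched a transcript for 7 of the 8 members and not for Mttp. A match is a string of letters and not a shown site.

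Sis was read mostly in the wells that were high in Neurog3 or Tph1. In the DMSO plate it had 475 CPM (440.0 to 511) in the 34 wells with Neurog3 high alone, 268 CPM (239 to 299) in the 22 wells with both high and 466 CPM (438 to 495) in the 49 wells with Tph1 high alone. The 195 wells with neither high had 141 CPM (133 to 148). Of that last value 49.7% came from the 1 deep well named above, and without it the level was 73.98 CPM. The ISX-9 levels were 587 CPM (561 to 613) in 90 wells with Neurog3 high alone, 991 CPM (927 to 1057) in 29 with both and 776 CPM (736 to 818) in 51 with Tph1 high alone. The 120 wells with neither had 171 CPM (161 to 182), or 98.4 CPM without the well with the most reads. In both plates all 3 classes lay above the wells with neither.

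Shares of wells were also higher in these 3 classes than with neither gene high, though not in the order of the levels. Sis was read in 55.9%, 68.2%, 61.2% and 22.1% of DMSO wells with Neurog3 alone, both, Tph1 alone and neither high. Thinned to 2000 reads these shares were 41.2%, 40.9%, 32.7% and 8.21%. The ISX-9 shares were 41.1%, 58.6%, 54.9% and 30.8%, and thinned 32.2%, 37.9%, 27.5% and 13.3%. At 2000 reads a level of 500 CPM is about 1 read, so a thinned well without a Sis read is not shown to lack the gene.

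Taken over all wells with Neurog3 or Tph1 high, Sis had 421 CPM against 141 CPM in wells with neither in the DMSO plate (2.99-fold), and 705 against 171 CPM in the ISX-9 plate (4.11-fold). Of the wells with Sis high, 27 of 36 in the DMSO plate and 50 of 60 in the ISX-9 plate were high in Neurog3 or Tph1, which applied to 35% and 58.6% of all kept wells. DMSO wells without a Neurog3 read, with a read below the high level and with Neurog3 high had 166, 229 and 383 CPM of Sis. The same bands had 360.2, 293 and 674 CPM in the ISX-9 plate. Without the well with the most Sis reads of each band they were 116, 135 and 352 CPM (DMSO) and 221, 216 and 612 CPM (ISX-9). The shares of wells with a Sis read were 26.1%, 36.3% and 60.7% (DMSO) and 30.4%, 44.6% and 45.4% (ISX-9). In both plates the band with Neurog3 high had the highest level.

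Wells with neither gene high were divided by other markers. Sis had 449 CPM (409 to 492) in the 16 DMSO wells with a high sum of peptide hormone genes, where it was read in 10, and 367 CPM (302 to 440.5) in the 10 such ISX-9 wells, where it was read in 4. Goblet wells, set by the mucin gene Muc2, served as a class that should lack enterocyte genes. Sis had 16.97 CPM in the 54 DMSO goblet wells (median depth 37336) and 11.9 CPM in the 29 ISX-9 ones (median depth 14874), with a read in 18.5% and 13.8%, and in 1.85% and 0% after thinning. Of 29 wells, a count of 0 leaves an exact upper bound of 11.9%. Mitotic wells had 0.766 CPM in the DMSO plate (14 wells) and 10.5 CPM in the ISX-9 plate (16 wells). In the 15 DMSO Paneth wells, set by Lyz1, the level was 9.43 CPM, and the 1 ISX-9 Paneth well had no Sis read. The goblet, Paneth and mitotic levels were thus far below those of the endocrine classes. The remaining wells had 214 CPM (96 wells, 50.5 without the deep well) and 267 CPM (64 wells, 135 without the top well).

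**Figure D2:**
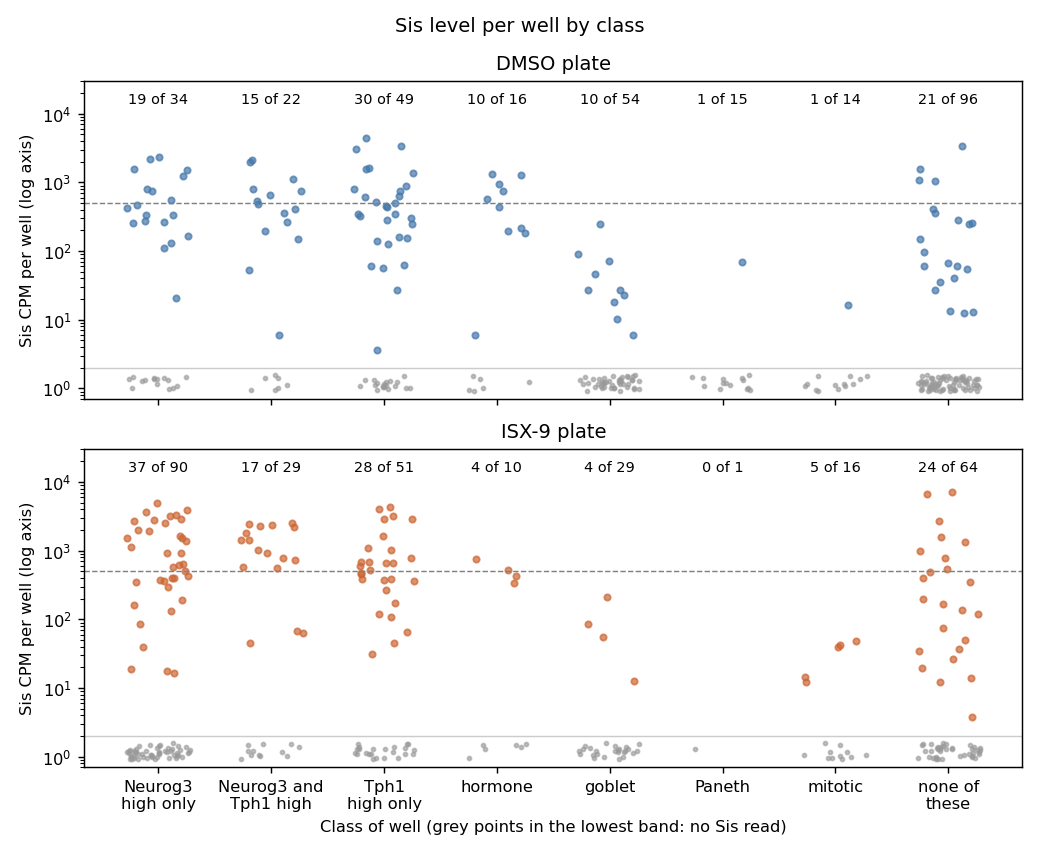
Sis CPM in each kept well (points, log axis) by class of well for the DMSO (upper panel) and ISX-9 (lower panel) plate; the printed counts are wells with a Sis read of all wells of the class, grey points are wells without one, and the dashed line is 500 CPM. In the DMSO plate 19 of 34 wells with Neurog3 high alone hold Sis, against 10 of 54 goblet wells.

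Ranked over 8666 genes by the smaller of the plates' Pearson r with Sis over wells thinned to 5000 reads (258 DMSO wells and 251 ISX-9 wells), the genes most like Sis were endocrine ones. Neurod1 led with r = 0.48 and 0.46 in the DMSO and ISX-9 plate. Fev, a transcription factor of endocrine precursors and serotonin cells, had 0.42 and 0.41, and Chgb, a granin of secretory granules, 0.47 and 0.39. Aplp1 had 0.52 and 0.39, Cplx2, a complexin of vesicle release, 0.38 and 0.42, and Ptprn2, a protein of dense-core vesicles, 0.40 and 0.38. Rfx6, a transcription factor of endocrine cells, had 0.38 and 0.38, and Runx1t1 had 0.37 and 0.47. Neurog3 itself had 0.22 and 0.21, and Tph1 0.34 and 0.25. The wells share their plate and library, and r is a description with no test. The 8 enterocyte genes were left out of the ranking, and no gene of the wider enterocyte list given below was among the 8 ranked first.

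Neurod1 was then used to divide the wells, a split chosen after this ranking was seen, so it describes the same pattern again. Sis had 528 CPM in the 81 DMSO wells with Neurod1 high and 156 CPM in the other 219, or 101 CPM without the deep well. The ISX-9 levels were 1114 CPM in 117 wells and 84.6 CPM in 173. Among wells with Neurog3 high alone, Sis had 546 CPM with Neurod1 high (21 wells) and 353 CPM without (13 wells) in the DMSO plate, and 1043 CPM (44 wells) against 96.3 CPM (46 wells) in the ISX-9 plate. Leaving out the well with the most Sis reads of each group gave 466 against 131 CPM and 899 against 39.2 CPM. The 29 ISX-9 wells with Neurog3 high alone and no Neurod1 read had 11.4 CPM of Sis, within the level of goblet wells, and the 8 such DMSO wells had 1 Sis read in all. These wells were shallower, with median depths of 15740 (ISX-9) and 13862.5 (DMSO) reads, against 29874 and 38211 with Neurod1 high. The part of depth was not tested. Wells with Neurog3 high alone thus held groups with much and with little Sis, as divided by a gene picked for its likeness to Sis. Wells with neither Neurog3 nor Tph1 high showed the same order, at 519 CPM with Neurod1 high (18 wells) against 110.0 without in the DMSO plate, and 2837 CPM (12 wells) against 42.2 in the ISX-9 plate. Without the top well of each group these were 436 against 35.9 CPM and 1627 against 32.5 CPM. Among wells with Tph1 high alone the gap was smaller: 626 against 392 CPM in the DMSO plate and 906 against 471 CPM in the ISX-9 plate. Without the top well of each group it was 268 against 308 CPM in the DMSO plate, the other way round, and 698 against 549 CPM in the ISX-9 plate. Of these, the 11 DMSO wells with no Neurod1 read, at a median depth of 5389 reads, still had 727 CPM of Sis, or 445 CPM without the top well.

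**Figure D3:**
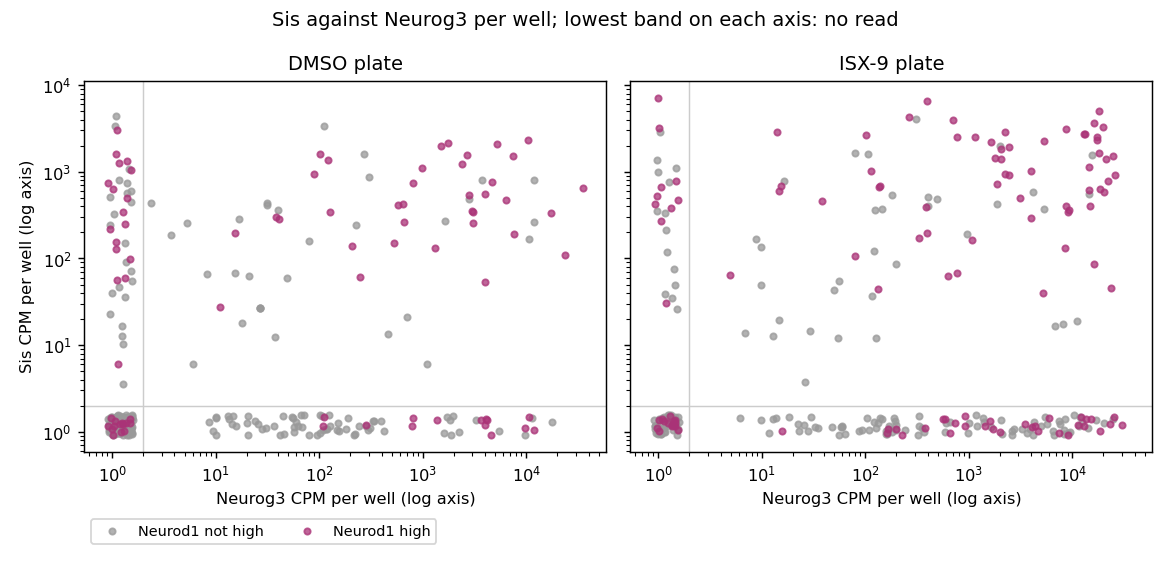
Sis CPM against Neurog3 CPM in each kept well, both on log axes, with wells at no read drawn in the lowest band of each axis; purple points have Neurod1 high. In the ISX-9 plate wells with Neurog3 high and Neurod1 not high gather in the lowest Sis band, and only 9 of the 46 wells with Neurog3 high alone and Neurod1 not high have a Sis read.

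The wells with Sis high were high in endocrine markers and low in those of other secretory cells. All 6 pan-endocrine markers (Neurod1, Insm1, Chga, Chgb, Runx1t1 and Fev) were higher in wells with Sis high than in wells with no Sis read, at 31772 against 2397 CPM summed in the DMSO plate and 38086 against 6449 CPM in the ISX-9 plate. Of the DMSO wells with Sis high 33 of 36 were high in Neurog3, Tph1 or Neurod1 or in the hormone class, and of the ISX-9 wells 56 of 60. Such wells were 43.3% and 65.2% of all kept wells. None of the 6 goblet markers was higher, at 588 against 13367 CPM and 885 against 6202 CPM, and none of the 6 Paneth or 5 stem cell markers. Of the 7 immune and mesenchymal markers, Vim and Pecam1 were higher in both plates and Lyz2 and Col1a1 in the ISX-9 plate, with a sum of 279 against 37.5 CPM and 475 against 45.8 CPM. Ptprc, Cd3e and Cd79a, which define blood cells, were at 0 in the wells with Sis high. Depth and mitochondrial share moved with Sis as well. Wells with Sis high had median depths of 30935.5 (DMSO) and 31750 (ISX-9) reads, against 17663 and 13291 in wells with no Sis read, and a median mitochondrial share of 17.7% and 15.4% against 29.1% and 26.1%. The part of depth and mitochondrial share in the Sis levels was not tested.

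Anpep was lower in wells with Sis high than in wells with no Sis read in both plates, and Fabp2 and Mttp were lower in the ISX-9 plate. In wells with Sis high Anpep had 26.1 CPM in the DMSO plate, against 82.9 CPM in wells with no Sis read, and 44.7 against 61.3 CPM in the ISX-9 plate. Fabp2 had 21.3 against 24.4 CPM and 6.70 against 49.9 CPM. The DMSO gap of Fabp2 was small, and 4 of the 36 wells with Sis high had a read of it. Mttp had 26.6 against 21.1 CPM and 16.98 against 55.6 CPM. Wells with a Sis read below the high level had 78.5 (DMSO) and 65.6 CPM (ISX-9) of Anpep. They had 38.01 (DMSO) and 25.9 CPM (ISX-9) of Fabp2. Fabp2 in the DMSO plate and Anpep in the ISX-9 plate were thus highest in these wells, and did not fall steadily as Sis rose. No Fabp1 read fell in a well with Sis. Apoa1 was higher in both plates, at 16.6 against 3.39 CPM and 12.96 against 5.52 CPM. Rbp2 had 34.1 against 1.76 CPM in the DMSO plate, where 1 well held 44 reads, and was read in 9 of 36 wells with Sis high (25%) against 6 of 193 (3.11%). The ISX-9 levels were 2.68 against 2.39 CPM, with 5 of 60 wells (8.33%) against 9 of 171 (5.26%). In the hormone class Rbp2 had 70.3 CPM (55.04 to 88.6) in the DMSO plate, or 31.1 CPM without that well, and was read in 9 of 16 wells; the ISX-9 plate had 3 reads in 3 of 10 wells.

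Apoa1 lay with Tph1 and not with Neurog3. It had 38.2 CPM (30.6 to 47.2) in DMSO wells with Tph1 high alone and 22.8 CPM (15.1 to 33.2) with both high, against 1.36 CPM (0.165 to 4.92) with Neurog3 high alone and 5.78 CPM (4.38 to 7.49) with neither. The same classes of the ISX-9 plate had 27.6 CPM (20.4 to 36.5), 31.7 CPM (21.2 to 45.5), 2.43 CPM (1.05 to 4.78) and 4.64 CPM (3.06 to 6.75). The classes with Tph1 high lay above the others in both plates, on 12 and 10 wells with a read in the class with Tph1 high alone. Without the well with the most Apoa1 reads of each class the DMSO levels were 31.2, 13.1, 0 and 2.75 CPM, and the ISX-9 levels 15.4, 18.9, 1.55 and 3.65 CPM. Goblet wells had 17.8 CPM of Apoa1 in the DMSO plate, 5.71 without 1 well, and 10.7 CPM in the ISX-9 plate, 3.89 without 1 well.

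For Anpep, Fabp2 and Mttp, no class with Neurog3 or Tph1 high lay above the wells with neither in both plates. In wells with neither Neurog3 nor Tph1 high, Anpep had 73.6 CPM (DMSO) and 70.97 CPM (ISX-9). With Neurog3 high alone it had 96.7 CPM (81.4 to 114) in the DMSO plate, its highest class there, and 63.4 CPM (55.1 to 72.6) in the ISX-9 plate. In wells with Tph1 high alone it had 59.1 CPM, or 25.4 without 1 well that held 62.4% of the reads, and 17.5 CPM. Goblet wells had 103 and 71.2 CPM of Anpep, with a read in 11.1% and 3.45% of thinned wells against 8.67% and 8.62% of all kept wells. The DMSO share of Anpep is therefore not above that of goblet wells. Those wells were not free of Anpep themselves, with 254 reads in 30 of 54 DMSO goblet wells. In the DMSO plate the comparison thus shows no excess over goblet wells, and cannot decide whether the reads of Anpep are expression. In the ISX-9 plate the share of all wells, 8.62%, was above the 3.45% of the 29 goblet wells. Fabp2 had a read in 3.70% and 6.90% of thinned goblet wells against 2.67% and 2.07% of all wells, and is likewise at the level of goblet wells in both plates. Mttp had a read in 0% and 3.45% of thinned goblet wells, against 1.67% and 4.14% of all. In the ISX-9 plate Fabp2 was 53.3 CPM in wells with neither gene high and had no read in the 29 wells with both high, and Mttp was 52.6 against 7.65 CPM. With Neurog3 high alone that plate had 17.6 CPM of Fabp2 and 48.6 CPM of Mttp. In the DMSO plate the order of neither and both was the other way, with Fabp2 at 30.2 against 37.2 CPM and Mttp at 18.8 against 37.2 CPM, where 1 well held 72.7% of the reads of each gene in the class with both high. The DMSO wells with Neurog3 high alone had 23.1 CPM of Fabp2 and 28.6 CPM of Mttp. Without the top well of each class this Mttp level was 11.2 CPM, against 15.4 CPM with neither high.

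The contrast of wells with Neurog3 or Tph1 high over wells with neither (log2 ratio of CPM + 5) was also set against all genes. In the DMSO plate 2 of the 5 members whose mean reached 10 CPM were at least 2-fold higher, Sis at 1.55 and Apoa1 at 1.40, beside 5.82% of 8697 genes, and 0 were 2-fold lower, beside 3.41%. In the ISX-9 plate 1 of 4 was 2-fold higher, Sis at 2.01, beside 7.64% of 9278 genes, and 1 was 2-fold lower, Fabp2 at -1.63, beside 4.93%. Apoa1 was at 1.01 there with a mean under 10 CPM. Sis was the member past 2-fold in the same direction in both plates among those with such a mean.

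**Figure D4:**
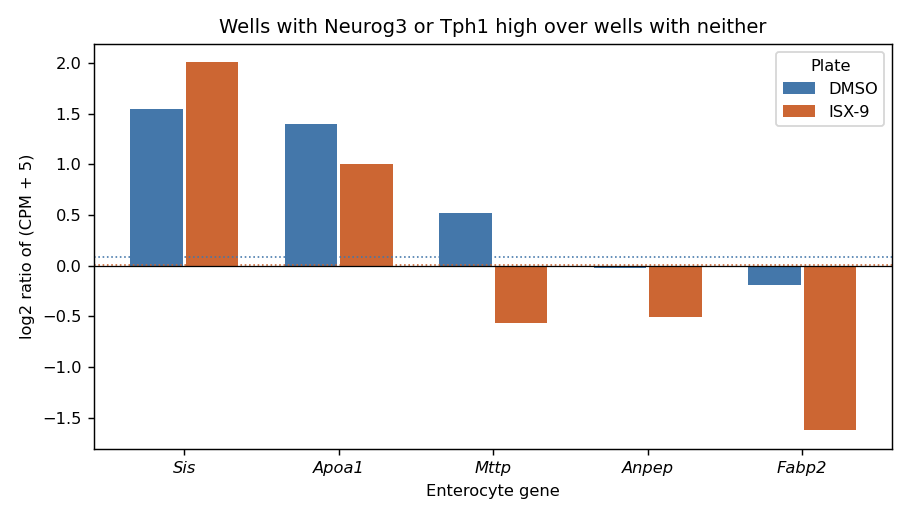
Bars give the log2 ratio of CPM + 5 for wells with Neurog3 or Tph1 high over wells with neither, for 5 of the genes in the DMSO (blue) and ISX-9 (orange) plate; dotted lines are the medians of all genes whose mean reached 10 CPM, 0.08 and 0.01. Sis stands at 1.55 and 2.01, and Mttp, at 0.52 and -0.57, differs in sign between the plates.

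The 6 ISX-9 wells with Alpi were deep, at 77802 to 170708 reads, and held 9 to 37 Alpi reads each, or 64.4 to 380.2 CPM. They were spread over classes: 2 were mitotic, 2 belonged to none of the classes, 1 had Neurog3 high alone and 1 had both genes high. Fabp2 was read in 5 of them, Mttp in 5, Apoa1 in 4, Sis in 3 and Anpep in 1. The well with the most Sis among them held 107 Sis reads beside 426 Neurog3 and 150 Tph1 reads. Of the 3 wells with Fabp1 over both plates, all held Fabp2 and none held Sis. Deep wells hold reads of more genes, so these counts describe the wells and are not shares to set against others.

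No well held reads of more than 5 of the 8 genes. In the DMSO plate 91 wells held none of them, 105 held 1, 63 held 2, 25 held 3, 12 held 4 and 4 held 5. The ISX-9 plate had 90, 86, 56, 34, 20 and 4 such wells. The number of genes moved with depth: wells with none had a median of 8962 and 6815.5 reads and wells with 5 had 351756 and 134014. Thinned to 5000 reads, 2 DMSO wells and 3 ISX-9 wells held 3 of the genes and none held more. A full set of the 8 genes could not occur in the DMSO plate, where Alpi had no read. In the ISX-9 plate it hung on the 2 wells with Fabp1. That no well held the full set at this depth therefore says little about the wells. The genes are called by their names here rather than as marks of an enterocyte.

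Pairs were counted over wells thinned to 5000 reads, beside the number that the product of the shares gives. Sis and Anpep shared 6 DMSO wells against 15.1 by the product (r = -0.20) and 8 ISX-9 wells against 11.7 (r = -0.07). Sis and Fabp2 shared 2 against 3.35 and 3 against 5.83 wells, and Sis and Mttp 2 against 3.35 and 4 against 6.44. In thinned wells Sis thus shared fewer wells with each of these 3 genes than the product. At full depth this did not hold: Sis and Anpep shared 38 against 42.8 and 49 against 41.9 wells, Sis and Fabp2 23 against 19.97 and 23 against 23.8, and Sis and Mttp 22 against 16.1 and 31 against 27.9. Thinned, Sis and Apoa1 shared 7 wells against 3.63 and 3 against 1.84, and Sis and Rbp2 4 against 1.95 and 1 against 1.23. At full depth Fabp2 and Mttp shared 24 DMSO wells against 8.40 and 31 ISX-9 wells against 13.6, or 42.9% and 53.4% of the wells with Fabp2. After thinning this was 1 well against 0.558 and 3 against 1.59. Full-depth overlaps move with depth, since wells with Fabp2 had a median of 95157.5 and 79481.5 reads, and the part of depth in them was not tested.

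The Sis CPM was higher in the ISX-9 plate in each class set by Neurog3 and Tph1, by unlike amounts, and the mix of classes differed too. The share of wells with a Sis read was lower there with Neurog3 high alone (41.1% against 55.9%), both high (58.6% against 68.2%) and Tph1 high alone (54.9% against 61.2%). With neither high it was higher (30.8% against 22.1%). Among wells with neither, hormone and goblet wells had lower ISX-9 levels, and mitotic and remaining wells higher ones. The ratio of Sis CPM, ISX-9 over DMSO, was 1.24 with Neurog3 high alone, 3.69 with both high, 1.67 with Tph1 high alone and 1.22 with neither. Over all wells it was 1.89. Median-of-ratios or ERCC scaling, with log2 shifts of -0.17 and -0.25, would lower each ratio, and 1.24 and 1.22 are the nearest to 1. Among wells with Neurod1 not high, ISX-9 levels were lower with Neurog3 high alone (96.3 against 353 CPM) and with neither (42.2 against 110.0 CPM). Without the top well of each group these were 39.2 against 131 CPM and 32.5 against 35.9 CPM, the latter nearly equal. ISX-9 levels were higher with Tph1 high alone (471 against 392 CPM, or 549 against 308 CPM without the top wells). With both high they were 397 against 57.8 CPM, on 3 and 6 wells, where the 397 CPM was 16 reads of 1 well. Neurog3 was high in 56 DMSO wells (18.7%) and 119 ISX-9 wells (41.03%), and had 679 and 2990 CPM. With each class's share of reads taken from the ISX-9 plate, the DMSO class levels would give 293 CPM in place of 234. With the DMSO shares, the ISX-9 class levels would give 371 CPM in place of 442. Plate and treatment cannot be told apart in these values.

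A wider list of 77 genes with known roles in enterocytes, of which 70 had a row in at least 1 plate, served as a frame. It was chosen with earlier results of these data known. Of its 43 genes whose mean reached 10 CPM, 24 had a log2 ratio above 0 and 19 below, with a median of 0.03. Of these 2 were 2-fold higher in the ISX-9 plate, Mogat2, an acyltransferase of fat absorption, at 1.53 (4.88 and 23.6 CPM), and Slc2a5, the fructose transporter, at 1.49 (3.32 and 18.3 CPM). The urea cycle gene Otc was 2-fold lower, at -1.11 (89.2 and 38.6 CPM). These counts of 2 and 1 compare with the background shares of 4.51% and 1.19%.

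Structural and regulatory genes of the list were read widely, some of them in most wells. Vil1, the microvillus protein villin, had 299 and 292 CPM in 73.7% and 69.7% of wells, Myo7b 233 and 220.1 CPM, and the keratin Krt19 222 and 185 CPM. Hnf4a, a transcription factor of intestinal epithelium, had 290.2 and 297 CPM, and Gata4 169 and 171 CPM. Among enzymes, Mgst1 had 84.04 and 109.6 CPM and Cps1 94.7 and 88.6 CPM. Among brush-border enzymes, the maltase gene Mgam had 224 and 146 CPM in 56% and 55.2% of wells, Dpp4 30.97 and 22.03 CPM, and Xpnpep2 21.9 and 23.6 CPM. Of the lipid genes Acsl5 had 97.6 and 85.2 CPM, Scarb1 32.1 and 47.5 CPM and Dgat1 34.6 and 29.9 CPM. Of the transporters Slc5a1, which takes up glucose, had 107 and 122 CPM. Apoa4, an apolipoprotein abundant in enterocytes, had 4 DMSO reads and 1 ISX-9 read.

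Genes of the wider list were 2-fold higher in the endocrine wells at a share near that of all genes, and 2-fold lower at a larger share. Over wells with neither Neurog3 nor Tph1 high, 2 of 39 genes were 2-fold higher in the DMSO plate (Apob and Cyp2c65), beside 5.82% of all genes, and 6 were 2-fold lower (Apoc2, Espn, Gsta4, Gata5, Maf and Klf4), beside 3.41%. Of 43 genes in the ISX-9 plate those higher included Slc2a5 and Maob, beside 7.64% of all genes, and 5 were lower (Apoc2, Acsl5, Cps1, Gsta4 and Klf4), beside 4.93%. Apoc2, Gsta4 and Klf4 were lower in both plates, and no gene of the list was higher in both. Klf4, a transcription factor also known from goblet cells, had the log2 ratios -3.09 and -1.94. Mgam, which like Sis encodes a brush-border disaccharidase, had 0.01 and -0.39, against 1.55 and 2.01 for Sis.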

How the data were processed

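The authors deposited raw counts, as reads per gene and well, for 1 plate per treatment. Per the labels' protocols cells were sorted by SORT-seq and copied by CEL-Seq2 with a molecular barcode of 4 bases, which allows 256 combinations; deposited values reach 61032, so they are reads and not molecules. The submitters' processing notes name BWA, with no version, and hg19, while the gene rows carry mouse symbols; chromosomes were not turned into positions, and promoters were matched by symbol (8 of 8). Of 384 wells per plate, 84 and 94 were left out by the filter on reads and genes. Doublets were not called. The 16943 genes are those with a row in at least 1 plate, and a gene not listed for a plate counts 0. The pseudocount was 5 CPM for ratios and 50 CPM for r. The members and lists were chosen with earlier results of these data known.

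Classes were set in this order: Neurog3 and Tph1 high; then a sum of peptide hormone genes of at least 5000 CPM, Muc2 of at least 2000 CPM, Lyz1 of at least 10000 CPM, a sum of mitotic genes of at least 1000 CPM. The text names the 8 members, Neurog3 and Tph1, up to 3 genes of the highest mean per subgroup of the wider list with those past 2-fold at a mean of at least 10 CPM, and the 8 genes most like Sis among genes read in at least 10% of wells of both plates. Genes past 2-fold between classes and Apoa4 were named after their values were seen. Likeness to Fabp1 could not be computed, since no DMSO read was left after thinning. Lct, Tmprss15, Cd36, Bco1, Slc51b, Slc10a2 and Gsta1 of the wider list, and Sst of the hormones, were not analysed here, and 1 further gene of that list is not reported here. Alternatives were other filters, scalings, pseudocounts, depths and leaving out single wells. Scripts ran in Python 3.11.15 with NumPy 2.4.6, pandas 2.3.3, SciPy 1.17.1 and Matplotlib 3.10.9, and were tested on simulated data.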

Additional observations from a re-analysis of the deposited data

Results flagged for a closer look

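The filter on reads and genes left out 84 wells of the DMSO plate with 159699 reads and 94 of the ISX-9 plate with 110974 reads. These wells held some reads of the members above the 3 reads used as the limit for a count of 0. Sis had 8 reads in the DMSO plate (50.1 CPM, against 234 CPM in the kept wells) and 14 in the ISX-9 plate (126 against 442 CPM). Anpep had 8 reads (50.1 against 73.2 CPM) and Apoa1 had 5 reads (31.3 against 11.7 CPM) in the DMSO plate.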

How the results depend on the processing

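Sis kept its direction, between plates and between classes, under every alternative run. The Sis log2 ratio, ISX-9 over DMSO, of 0.90 was 1.54 without the 5% of wells with the most reads, 1.06 without the well with the most Sis reads, 1.02 as a mean of per-well CPM, 0.83 thinned, 0.80 without the ribosomal precursor Rn45s, 0.74 with median-of-ratios scaling and 0.65 with ERCC scaling. The median of the 8 ratios ran from 0.01 to 0.36 over 11 alternatives. Fabp2 changed sign to -0.04 with ERCC scaling, Apoa1 to 0.03 as a mean of per-well CPM, and Anpep was 0 thinned. The share of wells with Sis was 18.3% (DMSO) and 24.1% (ISX-9) thinned, and 24.3% and 31.03% when 3 reads were asked for. The log2 ratio of Sis CPM, Neurog3 or Tph1 high over neither, was 1.58 in the DMSO plate, and 2.34 thinned, 2.67 without the 5% deepest wells, 1.15 with high set at 2000 CPM and 2.51 without the well with the most Sis reads, an alternative added after the data were seen. In the ISX-9 plate it was 2.04, and in the same order 1.21, 1.59, 1.53 and 2.84. The causes were not tested. No paired analysis was possible because each treatment has 1 plate. One library per treatment and reads in place of molecules limit every value above.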
